A study of Rattus norvegicus with 9 samples.

Results

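T cell and cytotoxic lymphocyte genes were described as 10 genes chosen by name: Cd3d, Cd3e, Cd3g, Cd2, Cd8a, Lck, Zap70, Prf1, Gzmb and Nkg7. All 10 were on the array, with 14 of its 43685 probe sets, and they are 10 of the 19101 genes measured. A gene with several probe sets is given by its brightest, judged by the mean log2 over the 9 arrays, and Cd3e and Gzmb, with 3 each, are given by the others as well. Skin came from 9 Sprague Dawley rats, each hybridised to an array of its own. The CGN group was 4 rats given carrageenan, a seaweed polysaccharide that provokes acute inflammation, at 30 mg/kg body weight. Their paw swelling and pressure pain were tested at 3 hours and skin was taken at 4 hours. The control group was 5 rats without CGN, for which no vehicle, injection or paw test is recorded, so effects of CGN cannot be told apart from those of its injection or of the paw tests. The labels give neither the part of the skin taken nor sex or age. The comparison asks which genes are higher or lower in the skin of the pain model than in untreated skin.

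T cells recognise antigen through a receptor whose variable chains carry no signalling parts of their own. The CD3 chains, encoded by Cd3d, Cd3e and Cd3g, pass the signal on: the kinase Lck, held at the co-receptors CD4 and CD8, phosphorylates them, and the kinase ZAP-70 then docks there. Cytotoxic T cells and natural killer cells kill by releasing granules in which perforin, from Prf1, lets granzymes such as that of Gzmb into the target cell. Several of these genes are shared, since natural killer cells also use Zap70, Prf1, Gzmb and Nkg7. Healthy rodent skin holds resident T cells in both epidermis and dermis, while the first cells recruited by carrageenan are known to be neutrophils.

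The promoters of the 3 cytotoxic genes, Prf1, Gzmb and Nkg7, and of Cd3e, a chain of the receptor complex, are shown as examples that hold a match. Each is the 250 bases before the gene's start in the RefSeq sequence of the rat assembly GRCr8, printed 5′ to 3′ on the gene's strand. Capitals mark matches, on both strands, to GGAAGT, a motif of ETS factors, and to TGTGGT, a motif of RUNX factors. These families were chosen because Ets1 and Runx3 rose in CGN skin, as given further on.
Prf1, chr20:29788790-29789039, plus strand: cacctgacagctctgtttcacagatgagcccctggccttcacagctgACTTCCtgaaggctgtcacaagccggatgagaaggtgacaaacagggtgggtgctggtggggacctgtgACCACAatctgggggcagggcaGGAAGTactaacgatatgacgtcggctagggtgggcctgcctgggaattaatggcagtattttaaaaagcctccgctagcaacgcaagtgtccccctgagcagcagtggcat
Gzmb, chr15:34462470-34462719, minus strand: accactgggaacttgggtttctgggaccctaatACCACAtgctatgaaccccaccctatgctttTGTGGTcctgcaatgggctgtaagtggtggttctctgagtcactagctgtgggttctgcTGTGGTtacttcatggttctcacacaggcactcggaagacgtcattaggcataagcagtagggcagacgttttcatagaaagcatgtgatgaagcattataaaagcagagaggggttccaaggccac
Nkg7, chr1:102981247-102981496, plus strand: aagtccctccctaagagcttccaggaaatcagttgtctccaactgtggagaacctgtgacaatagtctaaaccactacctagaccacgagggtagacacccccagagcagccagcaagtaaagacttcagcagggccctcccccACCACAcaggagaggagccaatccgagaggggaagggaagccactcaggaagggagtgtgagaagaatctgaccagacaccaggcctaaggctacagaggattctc
Cd3e, chr8:54211771-54212020, minus strand: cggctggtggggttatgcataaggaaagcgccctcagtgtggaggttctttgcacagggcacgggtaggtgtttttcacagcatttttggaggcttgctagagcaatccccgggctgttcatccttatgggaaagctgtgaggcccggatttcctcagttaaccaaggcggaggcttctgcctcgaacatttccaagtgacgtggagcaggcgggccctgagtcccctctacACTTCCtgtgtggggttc
Prf1 held 2 ETS matches and 1 RUNX match, Gzmb 3 RUNX matches, Nkg7 1 RUNX match and Cd3e 1 ETS match. Cd8a, Zap70 and Cd3g, which also rose, had 0 matches to either motif, and of the other genes that did not pass, Cd2 had 1 RUNX match, Cd3d 1 ETS match, and Lck both motifs. Matches thus stood in genes that rose and in genes that did not pass. Of the 10 genes, 4 had an ETS match and 5 a RUNX match in such a window (Lck has 2 windows, for 2 starts). Over all 33469 windows of this length in the table, 19.2% held an ETS match and 14.5% a RUNX match. GGTGTGA, a T-box motif searched in the same way, stood in 0 of the 10 genes' windows and in 3.22% of all windows. A match describes letters only and does not show binding.

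In CGN skin 6 of the 10 genes were higher and 0 lower by limma with Benjamini-Hochberg adjustment over all genes at a threshold of 0.05, against 8.72% of all 19101 genes called higher. The 6 were the cytotoxic genes Prf1, Gzmb and Nkg7, the co-receptor gene Cd8a, the kinase gene Zap70 and the CD3 gene Cd3g. Every one of the 6 changed at least 1.5-fold, which 5.9% of all genes did upward with a call. In these 6 genes all 4 CGN values lay above all 5 control values, which was true of 8.44% of all genes. The remaining genes, Cd3d, Cd2, Lck and Cd3e, did not pass. The median log2 change of the 10 genes was 0.63, against -0.01 for all genes. These are changes in bulk tissue, where more cells of a type and more RNA per cell cannot be told apart.

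The intensities were low to moderate. By their means the 10 genes lay between percentiles 29.9 and 60.1 of all genes. At 1 probe set a gene, the median intensity of all genes was 42.6 in CGN and 44.9 in control. Single values of the 10 main probe sets ran from 9.2 to 132.37 on the linear scale, while the median over all probe sets was between 16.7 and 17.81 in each array. The files hold no detection calls, so it is not known which of these values lie above background, and the fold of a dim gene may understate its change. Keratinocyte genes were bright in both groups: the keratin gene Krt14 averaged 19836 in CGN skin and 20492 in control skin. Keratinocyte markers summed to 75397 to 82742 in CGN and 73428 to 92647 in control. Skeletal muscle markers summed to 1187 to 8490 in CGN and 14814 to 79053 in control, so the samples also held muscle RNA in varying amounts.

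**Figure D1:**
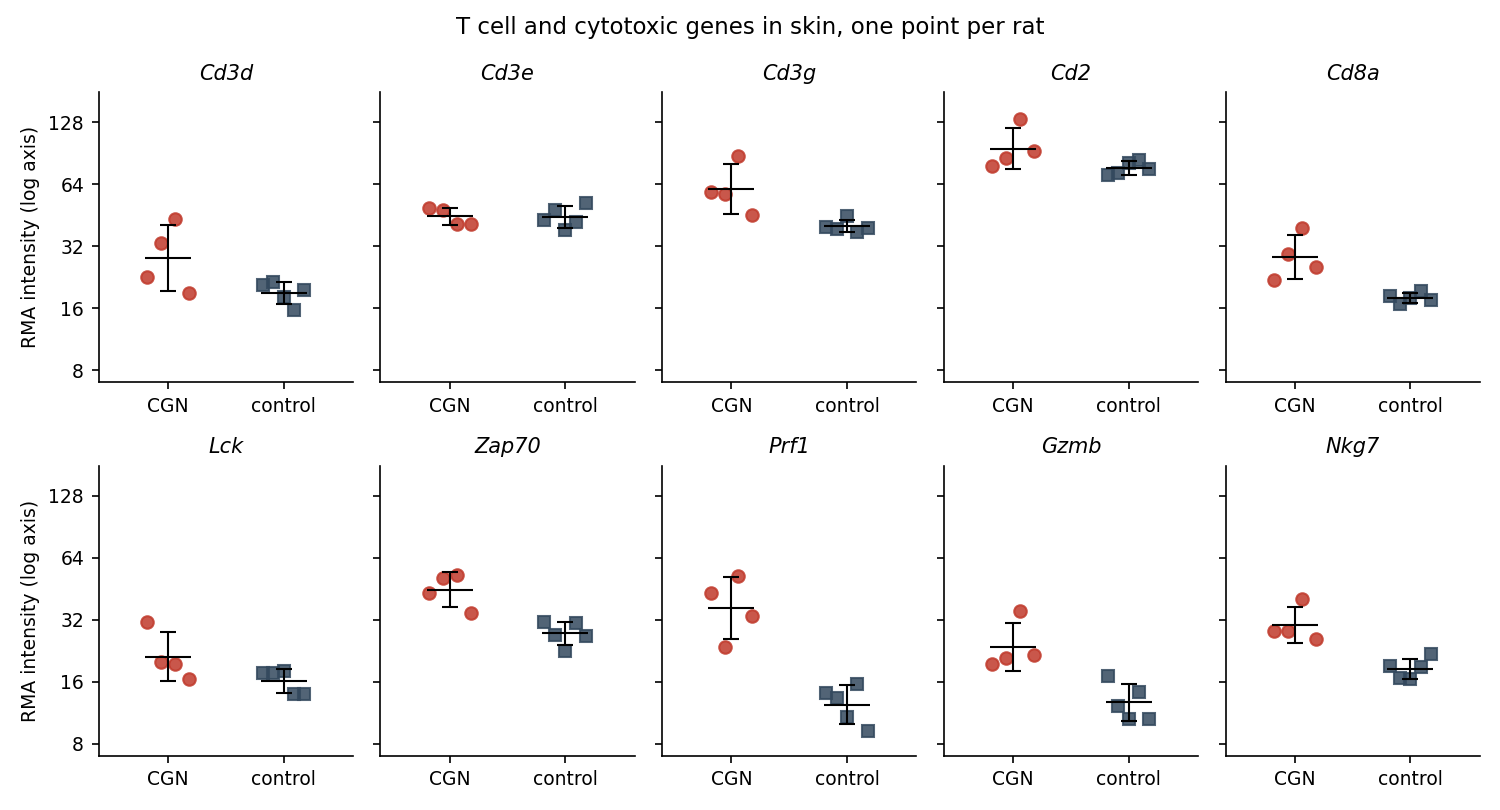
Intensity of the main probe set of each of the 10 genes on a log axis, CGN (4 rats, circles) beside control (5 rats, squares), 1 point per rat, with the mean of the log2 values and its SD. The groups are separate for Prf1, Gzmb, Nkg7, Cd8a, Zap70 and Cd3g and overlap for the other genes.

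Among the effector genes, Prf1, which encodes the pore-forming protein perforin, had the largest log2 change of the 10. Its intensity was 43.39, 23.69, 52.23 and 33.31 in CGN skin, against 14.08, 13.33, 10.79, 15.66 and 9.2 in control skin. The lowest CGN value stood well above the highest control value. The mean was 36.6 in CGN and 12.4 in control, a 2.95-fold difference (log2 change 1.56 ± 0.23, SE, limma adjusted p = 0.000802).

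Gzmb, the gene of granzyme B, a protease that triggers death of the target cell, was at 19.63, 20.96, 35.15 and 21.49 in CGN skin, against 16.98, 12.24, 10.58, 14.29 and 10.59 in control skin. CGN replicate 3 stood apart from the other CGN values, and the groups did not overlap. The change was 0.89 ± 0.19 on the log2 scale, or 1.86-fold (limma adjusted p = 0.00762). It rests on 1 probe set of 3. The other probe sets were dimmer, averaging 10.97 in CGN and 9.80 in control for one, and 5.93 in CGN and 5.54 in control for the second, whose name ends in _x_at, meaning that some of its probes also match other sequences. Their log2 changes were 0.16 ± 0.13 and 0.10 ± 0.09 (limma over all probe sets, adjusted p = 0.551 and 0.622), with overlapping groups. The _x_at probe set lay at percentile 1 of all probe sets by its mean, and the first at percentile 28.

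Nkg7, which encodes a membrane protein of cytotoxic granules, was at 28.3, 28.1, 40.31 and 25.75 in CGN skin, against 19.05, 16.69, 16.49, 18.79 and 21.91 in control skin. All CGN values were higher than all control values, and the change was 0.71 ± 0.14, or 1.63-fold (limma adjusted p = 0.00478).

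Of the receptor genes, Cd8a, the co-receptor chain of cytotoxic T cells and in rats also found on natural killer cells, was at 21.97, 29.24, 39.11 and 25.52 in CGN skin, against 18.34, 16.71, 18, 19.43 and 17.54 in control skin. The control values lay close together and below every CGN value. The change was 0.65 ± 0.15, or 1.57-fold (limma adjusted p = 0.00888). Cd8b, the partner chain that marks conventional CD8 T cells more narrowly, was at means of 11.8 in CGN and 11.2 in control and did not pass (0.08 ± 0.10, limma adjusted p = 0.631). By its mean Cd8b lay at percentile 19.1 of all genes, against 36.6 for Cd8a, and whether its signal was above background is not known. Cd8b was named after its values were seen, and the difference between the chains was not tested.

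The CD3 genes gave mixed results, although Cd3g, Cd3d and Cd3e are next to each other in the gene order of GRCr8. Cd3g had intensities of 59.01, 57.73, 88.28 and 45.43 in CGN skin, against 39.61, 38.77, 44.91, 37.78 and 39.5 in control skin. CGN replicate 3 was the highest of all, and CGN replicate 4 only just passed the highest control. The change was 0.60 ± 0.16, or 1.52-fold (limma adjusted p = 0.0212).

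Cd3d was at 22.72, 33.29, 43.54 and 19.02 in CGN skin, against 20.72, 21.49, 18.07, 15.69 and 19.64 in control skin. CGN replicates 2 and 3 were high, replicate 1 was slightly above the controls and replicate 4 lay among them. With a log2 change of 0.57 ± 0.22 (95% interval 0.09 to 1.04) Cd3d did not pass (limma adjusted p = 0.0888), and it passed in 1 of the 9 fits that left out 1 rat. That was the fit without CGN replicate 4 (0.75 ± 0.19, limma adjusted p = 0.0271), while without CGN replicate 3 the change was 0.36 ± 0.18 (limma adjusted p = 0.223).

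Cd3e, whose chain pairs with both of the others, was at 49.28, 48.15, 41.06 and 41.2 in CGN skin, against 42.93, 47.97, 38.49, 41.81 and 52.06 in control skin. The groups overlapped fully, with a log2 change of 0.01 ± 0.11 (95% interval -0.23 to 0.26, limma adjusted p = 0.963). Its other 2 probe sets, dimmer at means of 8.40 and 10.4 in CGN and 8.01 and 9.90 in control, gave 0.07 ± 0.10 and 0.08 ± 0.12 (limma over all probe sets, adjusted p = 0.764 and 0.790). Within an array Cd3g minus Cd3e was larger in CGN than in control by 0.59 on the log2 scale. It was higher than every control in 3 of 4 CGN arrays. For Cd3d minus Cd3e the difference was 0.55, and 2 of 4 CGN arrays were higher than every control. These pairs were chosen after the values were seen, so the differences are descriptive and no p-value is given.

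Cd2, an adhesion receptor of T and natural killer cells, was at 78.34, 86.07, 132.37 and 93.31 in CGN skin, against 71.01, 72.32, 81.56, 84.26 and 75.75 in control skin. CGN replicate 3 was far above the rest, while replicate 1 fell among the controls. The log2 change of 0.31 ± 0.14 (95% interval -0.0011 to 0.63) did not pass (limma adjusted p = 0.153), and was 0.16 ± 0.10 without CGN replicate 3.

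Zap70, the kinase that binds phosphorylated CD3 chains, was at 43.42, 51.03, 52.7 and 34.4 in CGN skin, against 31.4, 27, 22.68, 30.73 and 26.58 in control skin. The groups did not overlap, and the change was 0.70 ± 0.14, or 1.63-fold (limma adjusted p = 0.00550). Lck, the kinase acting before it, was at 31.19, 19.99, 19.61 and 16.44 in CGN skin, against 17.56, 17.69, 18.02, 14.03 and 13.93 in control skin. Here CGN replicate 1 was the high value, and replicate 4 lay within the controls. Its log2 change was 0.39 ± 0.17 (95% interval 0.01 to 0.78, limma adjusted p = 0.143), and 0.21 ± 0.13 without CGN replicate 1.

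**Figure D2:**
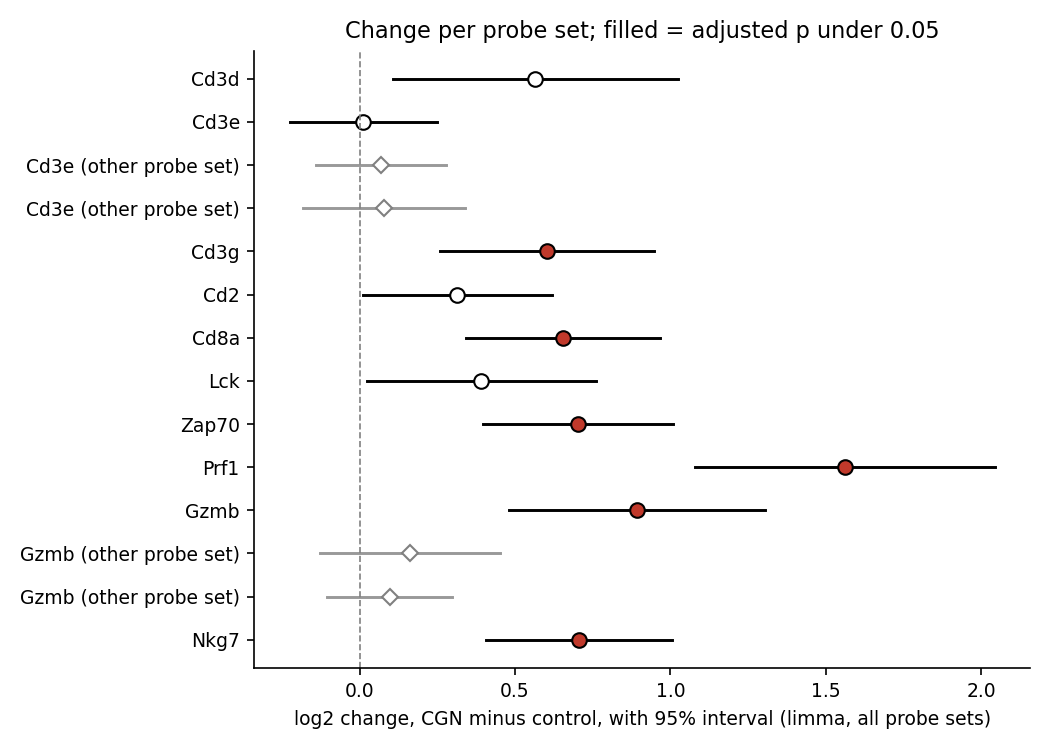
Log2 change with its 95% interval (limma over all 43685 probe sets) for the 14 probe sets of the 10 genes, circles for main probe sets and diamonds for the others, filled where the adjusted p is under 0.05. The 6 filled points lie between 0.60 and 1.56, and the 4 other probe sets, of Cd3e and Gzmb, lie between 0.07 and 0.16. Over all probe sets 5.3% were called higher in CGN.

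The CGN rats differed among themselves. CGN replicate 3 had the highest value of its group for 8 of the 10 genes, and CGN replicate 4 the lowest for 5. The mean log2 of the 10 genes was 5.17, 5.16, 5.58 and 4.97 in CGN replicates 1 to 4, and between 4.50 and 4.67 in the controls. Cd3e, lowest in CGN replicate 3, and Lck, highest in CGN replicate 1, departed from the common order. Without CGN replicate 3 the median change of the 10 genes was 0.46, and 6 genes still passed.

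**Figure D3:**
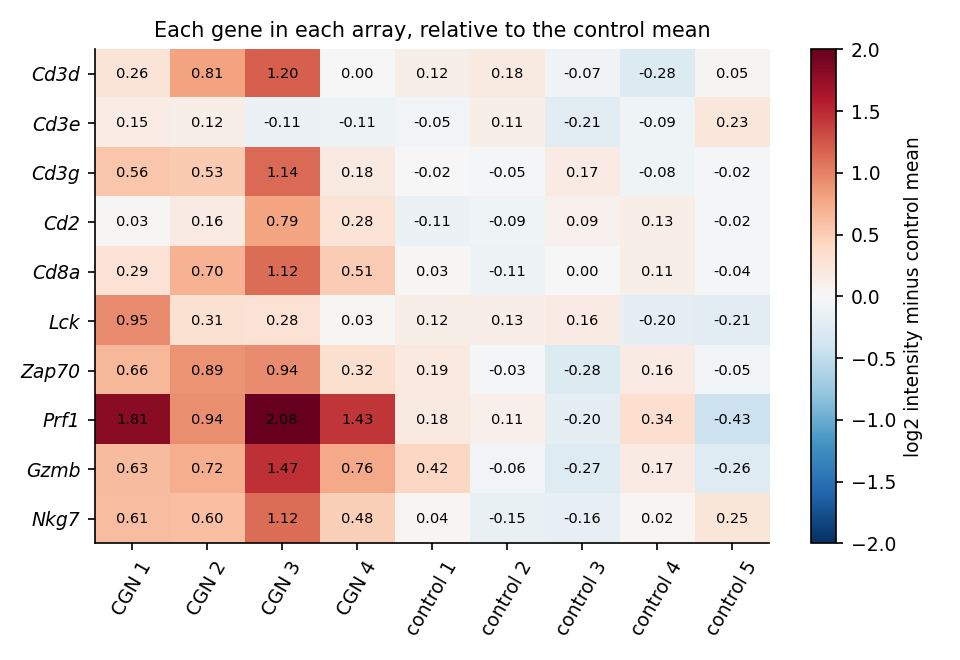
Log2 intensity of each gene in each array minus the mean of the controls, CGN arrays left of the control arrays. CGN replicate 3 is at 1.12 or more for 6 genes and at -0.11 for Cd3e, and Prf1 is raised in all 4 CGN arrays, by 0.94 to 2.08.

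Cd3d and Cd3g varied together from rat to rat (r = 0.80 of their deviations from the group means over 9 arrays), as did Cd2 and Cd8a (r = 0.89), whereas Cd3e and Cd2 ran apart (r = -0.58). The arrays share their normalization, and these values are descriptive. The genes of at least median brightness whose deviations were most like the mean of the CD3 genes were Lamtor1 (r = 0.98), Ppdpf (0.97), Bad (0.97), Ccdc12 (0.97) and Cactin (0.96), over 9 arrays. For Prf1 they were Plxnb2 (0.90), Or1e1c (0.90) and Arrdc3 (0.89). They were picked as the highest of many, over few arrays.

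Other T cell genes were set beside the 10. Of 16 other T cell surface genes, 3 rose (18.8%, against 8.72% of all genes) and 0 fell, with a median log2 change of 0.24. With 1 rat left out, 2 to 3 rose. Il7r, the interleukin-7 receptor that keeps lymphocytes alive, rose by 0.90 ± 0.14 (limma adjusted p = 0.00105), at 17.57 to 23.7 in CGN and 8.85 to 13.28 in control. Cd247, the zeta chain of the receptor complex, rose by 0.39 ± 0.09, and Cd7, a surface protein of T and natural killer cells, by 0.56 ± 0.16 (limma adjusted p = 0.00977 and 0.0273). Cd4, the helper T cell co-receptor that rat macrophages carry too, was at 0.26 ± 0.10 and did not pass (adjusted p = 0.110). The T cell markers Cd6, Cd5 and Trat1 did not pass either, at 0.23 ± 0.09, 0.24 ± 0.13 and 0.06 ± 0.08 (limma adjusted p = 0.104, 0.222 and 0.702). Trat1 lay at percentile 4.3 of all genes by its mean, and may not be above background. The lowest change of the list was that of Ubash3a, -0.16 ± 0.10.

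Of 18 genes of T cell receptor signalling, 6 rose (33.3%, against 8.72% of all genes) and 0 fell, with a median of 0.22. The largest change was that of Vav1, an exchange factor also used by myeloid cells, at 56.96, 93.42, 117.81 and 102.77 in CGN skin, against 20.11, 26.96, 22.46, 16.33 and 16.32 in control skin (log2 change 2.16 ± 0.22). The adaptor gene Lcp2, shared with neutrophils and platelets, rose by 1.59 ± 0.23 and the kinase gene Fyn, active in many tissues, by 0.73 ± 0.12. Without CGN replicate 1 or control replicate 3, 1 gene of this list also fell.

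Of 18 other genes of cytotoxic granules and killing, 8 rose (44.4%, against 8.72% of all genes) and 0 fell (median 0.21). Stx11, a fusion protein needed for granule release, rose by 3.34 ± 0.14, the granule proteoglycan gene Srgn by 3.07 ± 0.21 and the granzyme inhibitor gene Serpinb9 by 2.10 ± 0.28. These 3 are also expressed in myeloid cells. The granzyme genes Gzmm and Gzmk rose by 0.87 ± 0.18 and 0.55 ± 0.10 (limma adjusted p = 0.00506 and 0.00234), and Gzma did not pass, at means of 9.25 in CGN and 8.27 in control (0.16 ± 0.13). Gzma lay at percentile 9.7 of all genes by its mean, and may not be above background. The granzymes other than Gzmb were named after their values were seen. Without CGN replicate 1, 1 gene of this list fell.

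Of 19 natural killer cell genes, 4 rose (21.1%, against 8.72% of all genes) and 0 fell (median 0.22). They were Tyrobp, a signalling adaptor that myeloid cells share (2.51 ± 0.23), the lectin receptor gene Klri1 (1.51 ± 0.18), the activating receptor gene Klrk1 (0.97 ± 0.13) and its adaptor Hcst (0.94 ± 0.19). Klrk1 was at 35.75, 35.74, 52.09 and 44.73 in CGN skin, against 22.05, 22.39, 18.29, 21 and 22.98 in control skin, with no overlap. Klrd1 and Ncr1, which mark natural killer cells, did not pass (0.44 ± 0.20 and 0.12 ± 0.18, limma adjusted p = 0.145 and 0.730), with Klrd1 high in CGN replicate 1 alone, at 19.47. Both were dim, at percentiles 14.2 and 18.5 of all genes by their means, and may not be above background.

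**Figure D4:**
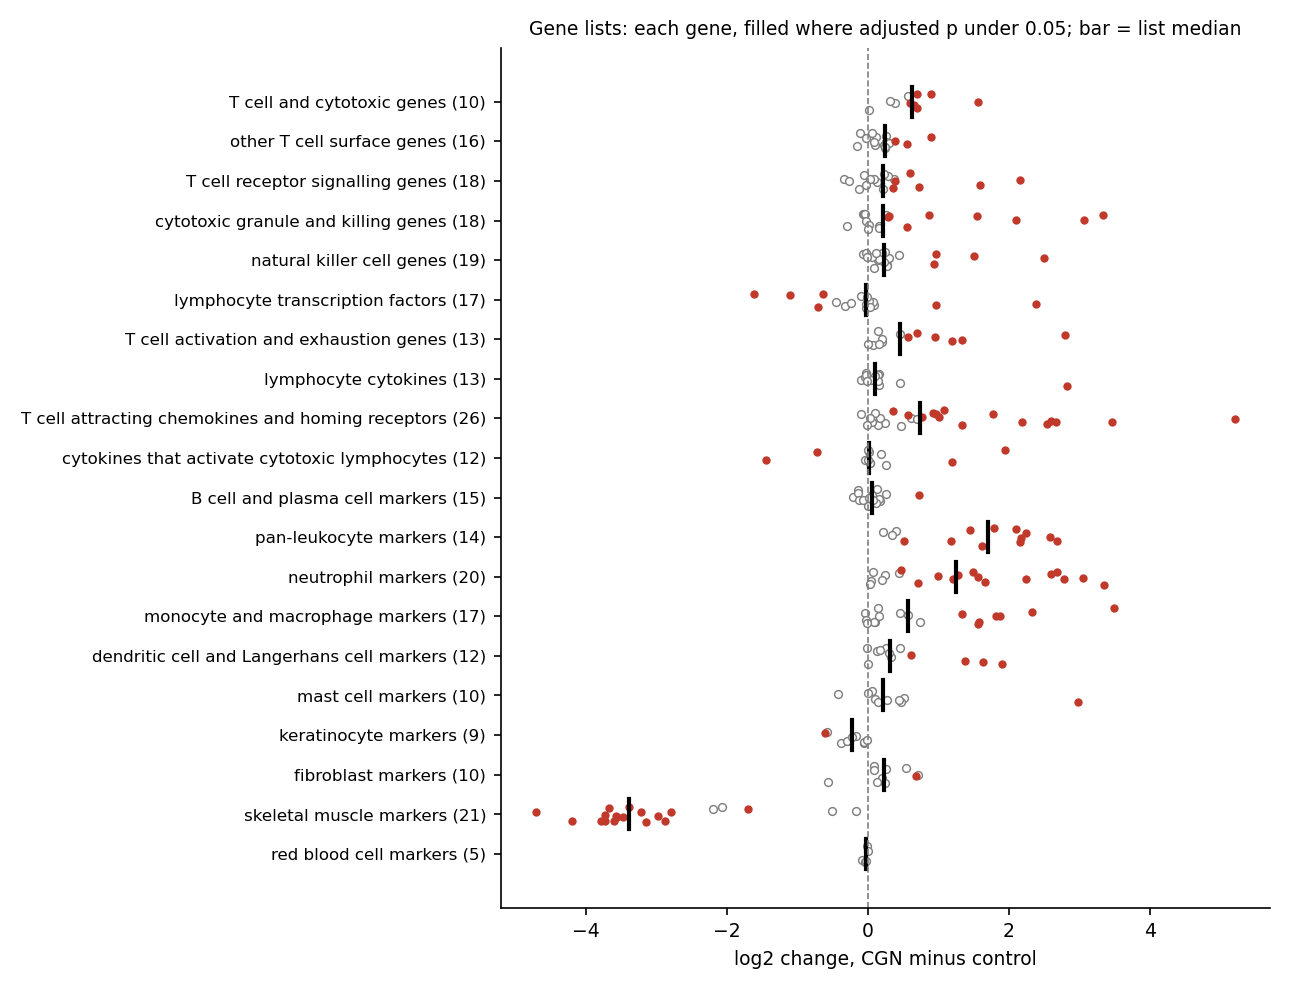
Log2 change of every measured gene in the 10 genes and the 19 other lists, filled where the limma adjusted p is under 0.05, with a bar at each list's median and the number measured in brackets. The 10 genes have a median of 0.63, B and plasma cell markers 0.06, neutrophil markers 1.25 and skeletal muscle markers -3.38.

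Transcription factor genes of lymphocytes moved both ways: of 17, 2 rose (11.8%, against 8.72% of all genes) and 4 fell (against 13.5% of all genes called lower). Runx3, which directs CD8 T cells and is also present in myeloid cells, was at 162.75, 336.79, 511.83 and 355.4 in CGN skin, against 54.57, 70.71, 50.53, 62.17 and 64.82 in control skin (2.39 ± 0.27, limma adjusted p = 0.000141). Ets1 rose by 0.97 ± 0.16, and Rora, which skin cells express as well, fell by 1.11 ± 0.17. Bcl11b, Gata3 and Zbtb7b fell too, at -1.61 ± 0.35, -0.71 ± 0.15 and -0.63 ± 0.16 (limma adjusted p = 0.00702, 0.00767 and 0.0144). Bcl11b was at 1558.12, 355.14, 883.63 and 486.04 in CGN skin, and averaged 2136 in control skin, where Cd3e averaged 44.4. Which cells gave the signal of these factors was not tested. Tbx21 and Eomes, the T-box factors of cytotoxic cells, did not pass (0.08 ± 0.10 and 0.22 ± 0.14, adjusted p = 0.627 and 0.303). Of 13 activation genes, 6 rose (46.2%, against 8.72% of all genes) and 0 fell (median 0.45). Among the risers were the hyaluronan receptor Cd44 (1.19 ± 0.13), the early response factor Egr2 (2.79 ± 0.32) and Tnfrsf18 (0.95 ± 0.16). All 3 are expressed outside T cells as well.

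Of 13 lymphocyte cytokine genes 1 rose (7.69%, below the 8.72% of all genes). It was Ltb, lymphotoxin beta, at 330.69, 250.78, 282.85 and 387.66 in CGN skin, against 43.62, 52.48, 41.67, 36.02 and 45.41 in control skin (2.83 ± 0.14). Without control replicate 5 or CGN replicate 2, 2 genes of that list passed. Ifng, the main cytokine of activated cytotoxic cells, was at means of 8.20 in CGN and 8.34 in control (-0.02 ± 0.12, 95% interval -0.29 to 0.24). Both means lay below the lower quartile of all probe sets, which was 9.41 to 10.02 over the arrays. Without detection calls, these values cannot show that Ifng stayed unchanged. Of 12 genes of cytokines that activate cytotoxic lymphocytes and of their receptors, 2 rose and 2 fell. The risers were 16.7% of the list, against 8.72% of all genes, while 13.5% of all genes were called lower. The shared receptor chain gene Il2rg rose by 1.95 ± 0.17 and Il21r by 1.20 ± 0.18, whereas Il15, a survival factor for natural killer and CD8 T cells, fell by 1.44 ± 0.19, with 68.96 to 127.98 in CGN and 191.15 to 300.36 in control. Il18 also fell (-0.71 ± 0.20), and 1 gene of this list fell in place of 2 when control replicate 1 or 5, or CGN replicate 2, 3 or 4, was left out.

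Of 26 chemokines that attract T cells and homing receptors, 15 rose (57.7%, against 8.72% of all genes) and 0 fell, with a median of 0.74. Ccl20, the ligand of the receptor CCR6, rose by 5.21 ± 0.30 and Ccl17, the ligand of CCR4, by 1.34 ± 0.12. Cxcr3, the receptor of activated T cells, rose by 0.57 ± 0.16 (limma adjusted p = 0.0272), with control replicate 1 at 27.1 among the CGN values of 26.39 to 44.24, and was named after its values were seen.

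Markers of other leukocytes were higher in the same arrays. The counts below stand against 8.72% of all genes called higher. Of 14 pan-leukocyte markers 11 rose and 0 fell, with a median of 1.71, among them Itgb2 (2.58 ± 0.18), Lcp1 (2.10 ± 0.16) and Cd53 (2.68 ± 0.21), and their summed intensity was 8692 to 13207 in CGN and 3321 to 4077 in control. Of 20 neutrophil markers 14 rose and 0 fell (median 1.25, summed 8283 to 21235 in CGN and 2931 to 3797 in control), among them Csf3r (2.24 ± 0.16) and Itgam (1.49 ± 0.12). Of 17 monocyte and macrophage markers 7 rose (median 0.58, and 0.38 without CGN replicate 3), among them Ccr1 (3.49 ± 0.21), Lyz2 (1.82 ± 0.15) and Cd14 (2.33 ± 0.20), and of 12 dendritic and Langerhans cell markers 4 rose (median 0.31), among them Cd83, Siglech and Cd207 (1.90 ± 0.23, 1.63 ± 0.31 and 1.37 ± 0.27). Of 10 mast cell markers 1 rose (10%, against 8.72% of all genes), Hdc (2.99 ± 0.20), and 2 did without CGN replicate 1 or 3. With 1 rat left out, 3 to 6 of the dendritic and Langerhans cell markers rose. The part of these other leukocytes in the rise of the shared genes was not tested. The pan-leukocyte mean on the log2 scale was 7.89, 7.98, 8.52 and 8.43 in CGN replicates 1 to 4, and between 6.50 and 6.76 in the controls.

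Of 15 B and plasma cell markers, 1 rose (6.67%, below the 8.72% of all genes), Cd72, a B cell surface receptor (0.73 ± 0.16). The defining genes Ms4a1, Cd79a and Cd79b did not pass, with log2 changes between -0.12 and 0.18, and the list's summed intensity was 321 to 363 in CGN and 277 to 326 in control.

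**Figure D5:**
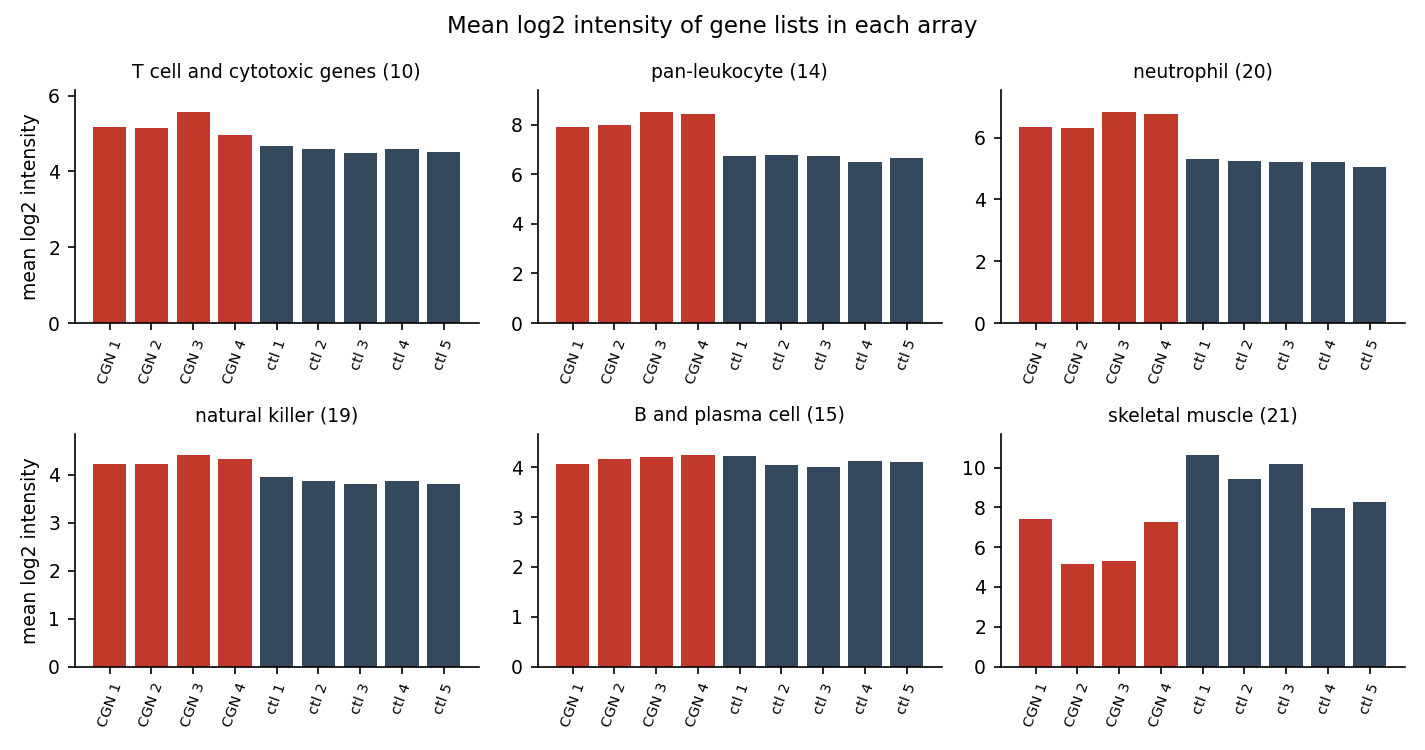
Mean log2 intensity of 6 gene lists in every array, CGN bars left of control bars (ctl), with the number of genes in brackets and axes from 0. The 10 T cell and cytotoxic genes lie between 4.97 and 5.58 in CGN and 4.50 and 4.67 in control, and the skeletal muscle list between 5.16 and 7.39 in CGN and 7.95 and 10.62 in control.

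Tissue make-up also differed. Of 21 skeletal muscle markers 17 fell and 0 rose (against 13.5% of all genes called lower), with a summed intensity of 1187 to 8490 in CGN and 14814 to 79053 in control. Those with the smallest adjusted p were Mb (-3.56 ± 0.69), Myh2 (-4.20 ± 0.82) and Neb (-2.98 ± 0.59). Of 9 keratinocyte markers 0 rose and 1 fell (Tp63, -0.60 ± 0.19, median -0.22), where 13.5% of all genes were called lower. When control replicate 1 was left out, 2 of these markers fell. With any one of control replicates 2, 4 and 5 or CGN replicates 2 to 4 left out, 0 fell. Of 10 fibroblast markers 1 rose (10%, against 8.72% of all genes), Pdgfra (0.68 ± 0.12, list median 0.23). Without CGN replicate 1, 3 rose, and without control replicate 1, 2 did. None of 5 red blood cell markers passed by limma, and 0 had an unadjusted p under 0.05 (Hbb, -0.08 ± 0.55). With the mean of the muscle markers as a covariate, none of the 10 genes passed by limma, and 2 had an unadjusted p under 0.05. That covariate correlated with group at -0.819, with a variance factor of 3.03 for the group term, which lowers the power of this fit. Without the covariate the standard error of Prf1 was 0.23, and with it 0.41. Prf1 was then at 1.69 ± 0.41 (adjusted p = 0.0641), Gzmb at 0.76 ± 0.35, Cd3g at 0.40 ± 0.28, Nkg7 at 0.40 ± 0.23, Zap70 at 0.39 ± 0.23 and Cd8a at 0.30 ± 0.23 (adjusted p = 0.321 to 0.585).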

How the data were processed

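Skin RNA of 4 CGN and 5 control rats was labelled and hybridised to 1-colour arrays, 1 per animal, per the labels' protocols. The deposited values are intensities on a linear scale, which the authors made with RMA according to the submitters' processing notes, a method that corrects background, normalizes the arrays together and summarises probes; no version or genome build is given in the sources used here. Both deposited tables held the same values for 43685 probe sets; 1 column, named by its group only, equalled 1 CGN sample. Symbols came from the annotated table and were updated through RefSeq (GRCr8), 9019 by accession, 13802 current, 2569 older and 2118 kept. Intensities were converted to log2 and tested for 19101 genes with limma 3.58.1 in R 4.3.3 (lmFit, eBayes, 2-sided, group as the only term), Benjamini-Hochberg over all genes. On simulated data for this comparison with 19101 genes it recovered 32% of changes of 0.5 (log2), 88% of 1 and 98% of 2. There 18901 of the genes were left unchanged, whereas 4243 genes passed in the data, so recovery in the data may differ. Means are geometric; ± is the standard error. The number of arrays limits the precision.

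The 10 genes, the 19 other lists (304 genes, 282 measured) and the tests were chosen with earlier results of these data known. Named are the 10 genes, up to 3 genes of each other list with the smallest adjusted p among those that passed (the first if none passed), and the genes most alike in deviations; every other gene named was chosen after its values were seen, and 1 gene that the rule names is not reported here. The within-array differences between genes were compared for 7 pairs by exact permutation. The 5 that set Prf1 against other genes that rose are not given, since Prf1 was picked for the size of its change. For the pairs of CD3 genes the p-values are left out, since these pairs were chosen after the values were seen.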

Additional observations from a re-analysis of the deposited data

Results flagged for a closer look

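A value counted as far from its group when its gap to the nearest other value exceeded Dixon's 95% limit on the log2 scale. Of 164 groups of values looked at (62 genes and 20 lists in 2 groups each), 7 had one, and chance gives about 1 in 20. For Gzmb, CGN replicate 3 was at 35.15, the other CGN rats at 19.63 to 21.49. For Cd3g, control replicate 3 was at 44.91, the other controls at 37.78 to 39.61. For Cd44, CGN replicate 1 was low at 2151, the other CGN rats at 3148 to 3334. For Cd53, control replicate 1 was low at 62.35, the others at 88.52 to 102.04. For Lyz2, control replicate 2 was low at 3704, the others at 5453 to 6331. For Tp63, control replicate 1 was low at 2573, the others at 3346 to 3657. The mean log2 of the cytokines that activate cytotoxic lymphocytes was low in CGN replicate 1, at 5.24, the other CGN rats at 5.32 to 5.33.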

How the results depend on the processing

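Leaving out each rat in turn gave 6 to 7 of the 10 genes, a median change of 0.46 to 0.75, 46 to 58 genes of the 9 other lymphocyte lists (53 with all rats) and 3108 to 4906 genes in all (4243 with all rats). Prf1, Gzmb, Nkg7, Cd8a, Zap70 and Cd3g passed each time. Quantile normalization, median centring, log2(intensity + 16), other probe set rules, deposited symbols, trend and robust options and array weights left 5 or 6 of the 10 genes past the threshold. The plain test without moderation lost Cd3g (adjusted p = 0.0652), and the filter on the dimmest 30% of genes removed Gzmb. With the muscle covariate 510 genes, 0 of the 10 and 17 of the other lymphocyte genes passed by limma. With the pan-leukocyte covariate, whose correlation with group was 0.969 (variance factor of the group term 16.4), 5 genes, 0 of the 10 (0 at an unadjusted p under 0.05) and 0 of the other lymphocyte genes passed. The median change of the 10 was 0.13 there, Cd8a was at -0.20 ± 0.56 and Gzmb at -0.21 ± 0.74. Same-numbered replicates showed no clear likeness (r of same-numbered deviations -0.280, 0.0445, 0.00664 and -0.121). Differently numbered ones ran from -0.294 to 0.346, so these values cannot settle whether replicate numbers pair the samples. With a replicate block 2603 genes and 4 of the 10 passed, and Zap70 and Gzmb did not (adjusted p = 0.0574 and 0.0724). Exact permutation tests gave an unadjusted p of 0.00794, the smallest possible with 4 against 5 rats, for Prf1, Nkg7, Cd8a, Zap70 and Cd3g, 0.0159 for Gzmb, 0.0397 for Cd2 and 0.0476 for Cd3d.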

Other observations

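The array also holds 12 probe sets whose deposited symbol names a T cell receptor alpha or beta chain, 10 of them Tcrb, looked at after their values were seen. These genes encode the antigen-binding chains that the CD3 proteins accompany. One Tcrb probe set, for the transcript BC091428, was at 46.29, 38.89, 46.55 and 32.87 in CGN skin, against 25.23, 19.93, 23.13, 21.6 and 24.6 in control skin, with no overlap (log2 change 0.84 ± 0.12, limma over all probe sets, adjusted p = 0.000841). The other 11 probe sets did not pass, so that 1 of 12 was called, where 5.3% of all probe sets were called higher. A second bright Tcrb probe set, marked _s_at for related transcripts, averaged 57.1 in CGN and 46.4 in control (0.30 ± 0.13, adjusted p = 0.186), and the remaining 10 had means between 5.62 and 10.2 in both groups.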
